A study of Homo sapiens with 22 samples.

Results

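The last interval of a BRIC-Seq chase, from 10 to 24 h, was examined in HEK293T cells, a human embryonic kidney line that carries the SV40 large T antigen. The members were the 6 libraries of these times among the 22 of the series, with 2 libraries per shRNA at 10 h and 1 per shRNA at 24 h. In BRIC-Seq, cells build the uridine analogue bromouridine (BrU) into new RNA, are moved to medium without it, and the labelled RNA that is left is pulled down with an anti-BrdU antibody and sequenced. All cells had been grown for 24 h in 150 μM BrU before the chase. They expressed either a control hairpin (shControl) or a hairpin against ZNF598 (shZNF598), the E3 ubiquitin ligase that recognises collided ribosomes. The questions were which transcripts returned toward their starting level and which fell further after 10 h, in both shRNAs alike, and whether any change differed between the shRNAs. Whether the cells were a pool or a clone, and whether same-group libraries came from separate cultures, was not given in the sources used here, so p-values measure the spread between these libraries, which may be technical.

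The level of a labelled mRNA during a chase reflects how fast it is degraded, chiefly by shortening of the poly(A) tail followed by decapping or by the exosome. Messages for transcription factors, cytokine signals and cell cycle regulators are known to be short-lived, while those for metabolic enzymes and ribosomal proteins are long-lived. Replication-dependent histone mRNAs are a class apart, since they end in a conserved stem-loop in place of a poly(A) tail and are degraded when DNA synthesis stops. Levels are normalised read counts (CPM, counts scaled to a fixed library total) for 1 transcript per gene, after TMM scaling of all 22 libraries. Because TMM brings the bulk of every library to the same level, a gene that rose did so relative to the bulk of labelled RNA in that library, and an absolute gain or loss cannot be told apart from a change of the bulk.

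The targeted gene stayed lower in the shZNF598 libraries. ZNF598 (GRCh38, chromosome 16, 1997655 to 2009821, minus strand) was at 20.6 and 15.2 CPM in the shControl and 3.31 and 3.85 CPM in the shZNF598 libraries of 10 h, and 17.5 and 8.604 CPM at 24 h. The 24 h library of shControl lay between its 10 h libraries, whereas that of shZNF598 lay above both of its own, on 84 counts against 53 and 43. The shRNA difference in this change was 1.31 on the log2 scale (SE 0.36, edgeR quasi-likelihood test, adjusted p = 0.136), which did not pass the threshold. Over 1 transcript per gene the libraries held 16047749 to 22337237 counts at 10 h but 6608953 (shControl) and 13197461 (shZNF598) at 24 h, so the 24 h values are the less precise. Summed over all transcripts, where a read can count for several, the totals were 55381420 to 79047375, 21220829 and 40157613. Pearson's r of log2 CPM across genes was 0.9941 and 0.9894 between the 10 h replicates, 0.9745 between the 24 h libraries of the 2 shRNAs, and 0.8799 to 0.9045 between 10 h and 24 h of the same shRNA. The share of counts in protein-coding genes was 54.6% to 59.1% at 10 h and 50.8% and 47.2% at 24 h, and that of misc_RNA genes, which include the 7SL and 7SK copies, was at most 23.4% and then 24.7% and 29.5%. Their part in the results was not tested, and the fit without misc_RNA genes and pseudogenes is given under the processing alternatives. Of 12 markers of the line's embryonic kidney and neural origin 10 passed the filter (PAX2 and LHX1 did not), against 0 of 17 markers of blood cells, stroma and endothelium.

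Replication-dependent histone mRNAs had the highest median late change, 24 h against 10 h, of the gene lists examined. They encode the core histones and linker histones that package new DNA during S phase. All 52 members that passed the filter, of 69 in the list, rose between 10 and 24 h in both shRNAs, with a median late change of 1.68 on the log2 scale (1.60 in shControl and 1.66 in shZNF598 alone). Over all 12725 genes tested, 37.6% rose in both shRNAs and 29.9% fell, with a median of 0.15 (edgeR quasi-likelihood test, adjusted p below 0.05, and the 24 h library of each shRNA beyond both of its 10 h libraries). Each of the 52 was also called when either 24 h library was left out. The stem-loop that these mRNAs share is shown for 1 gene of each histone class, all on chromosome 6, because it is the feature that sets the class apart. Capitals mark the letters of the stem-loop, at bases 756 to 771 of the 776 bases of the H1-3 transcript in GENCODE (GRCh38) and likewise near the end of the others.

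H1-3: taaacGGCTCTTTTCAGAGCCaccca
H2AC11: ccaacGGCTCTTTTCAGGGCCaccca
H2BC13: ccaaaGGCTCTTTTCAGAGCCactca
H3C1: gcaaaGGCTCTTTTCAGAGCCaccac
H4C3: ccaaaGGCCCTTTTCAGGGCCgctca

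The letters GGCNCTTTT followed directly by NAGNGCC, searched on the sense strand of the transcript that stands for each gene, occurred in 56 of the 12725 (0.44%). These were 48 histone genes of the list and 8 others. The others were mostly not a separate class: they held the histone variant gene H2AX, H3-7 and the histone pseudogenes H2BC19P and H2BC20P. The rest were NOP58 and genes named by an identifier alone. All 56 rose between 10 and 24 h in both shRNAs. This search was added after the histone values had been seen, and a match of letters does not show that a stem-loop forms or is used.

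H1-3, a linker histone gene (chromosome 6, 26234212 to 26234987, minus strand), was at 15.2 and 12.2 CPM in the shControl and 12.4 and 16.6 CPM in the shZNF598 libraries of 10 h, and 95.4 and 49.99 CPM at 24 h. Its late change was the largest among protein-coding genes, at 2.32 on the log2 scale (SE 0.17, adjusted p = 2.1e-11). The 24 h library of shControl was the higher of the 2, and both lay above every 10 h library. H3C1, a core histone H3 gene (chromosome 6, 26020451 to 26020958, plus strand), went from 8.87–13.7 CPM over the 4 libraries of 10 h to 48.5 and 53.98 CPM (late change 2.18, SE 0.16, adjusted p = 1.2e-11). H1-2 went from 56.98–97.98 CPM to 332 and 292 CPM and H3C10 from 38.5–49.5 CPM to 187 and 208 CPM. H2BC13, H2AC12, H4C3, H2AC11, H3C7 and H2AC13 followed, with late changes from 1.94 to 2.13, so that 10 of the 12 protein-coding genes with the largest rise were histone genes. The smallest rise of the list was 0.83 (H2AC25). Every member had fallen from 0 to 6 h (median -1.57), and at 24 h the list stood at -0.65 relative to 0 h. Histone genes are short and close in sequence, and reads that matched more than 1 locus had been discarded by the authors. Their median U content of 18.2% was below the 25.1% of all genes tested. The part of these in the values was not tested.

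Genes of replacement and variant histones were mixed. Of 10 of these genes, a list added after the histone values had been seen, 3 rose and 4 fell (median -0.05). CENPA, the centromeric H3, and H2AX rose by 0.71 and 0.55 on the log2 scale, while H2AZ1 fell by 1.56 and H3-3A by 1.44. H2AX is the member whose transcript holds the stem-loop letters above.

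Across all genes, 8731 of 12725 (68.6%) passed the test for a change between 10 and 24 h (edgeR, quasi-likelihood, p-values adjusted over all genes by Benjamini-Hochberg), 4873 of them higher and 3858 lower. DESeq2's Wald test turned this balance, with 3636 higher and 4156 lower. In 8581 of the 8731 the direction was seen in both shRNAs, 4781 higher and 3800 lower. This condition uses the same libraries as the test, so it is no independent support for a call. In most genes called early the late change went the opposite way. The early change was measured from 0 to 6 h in 8 libraries that the late change does not use. Of 5218 genes that fell early (41.0% of those tested), 3387 (64.9%) rose late in both shRNAs and 152 (2.91%) fell further. Of 4999 genes that rose early relative to the bulk (39.3%), 3041 (60.8%) fell late and 677 (13.5%) rose further. Scaling by total counts alone changed the early split to 2971 higher and 6958 lower. When genes were sorted into quintiles of 2545 by the early change, the median late change was 0.73, 0.45, 0.08, -0.49 and -0.72 from the quintile with the strongest early loss to that with the strongest early gain. In the quintile of strongest loss 1937 genes rose and 8 fell, and in that of strongest gain 356 rose and 1636 fell.

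**Figure D1:**
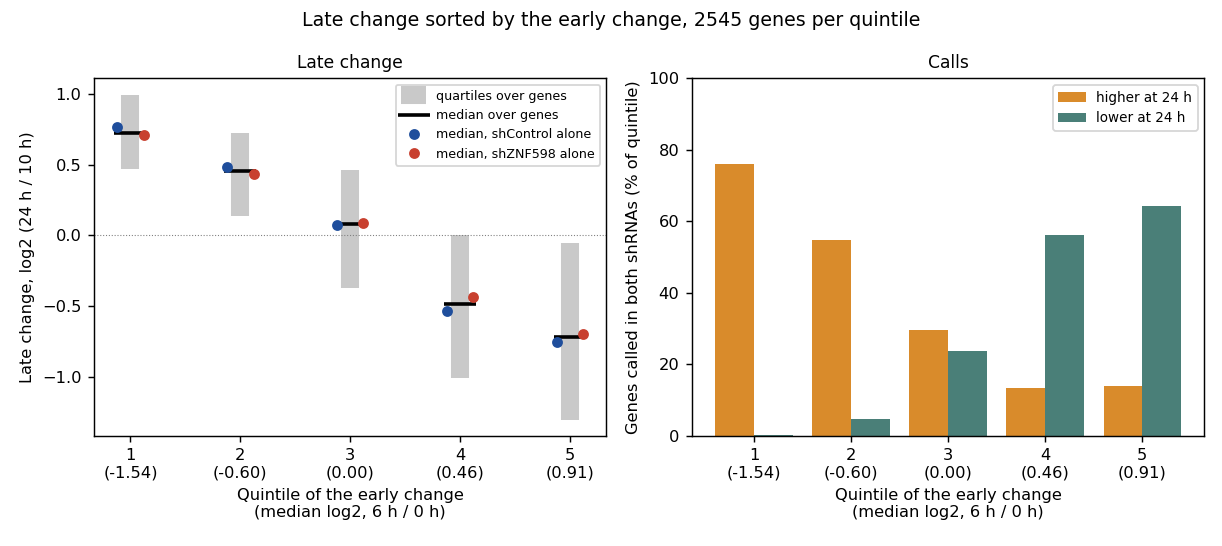
Left, late change (log2 of 24 h over 10 h) for genes in quintiles of the early change (log2 of 6 h over 0 h, medians under each number), with quartiles over genes as grey bars, medians as black lines and the medians of each shRNA alone as points. Right, the percentage of each quintile called higher or lower at 24 h in both shRNAs. The median falls from 0.73 to -0.72 across the quintiles, and the 2 shRNAs lie close together in each.

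At the median the return was partial. The quintile of strongest early loss stood at -0.70 relative to 0 h at 24 h (median log2), against -1.54 at 6 h, and that of strongest early gain stood at 0.61, against 0.91. The gain quintile had climbed further by 10 h, to 1.308 to 1.542 on the log2(CPM + 1) scale, before 0.63 (shControl) and 0.56 (shZNF598) at 24 h. On that scale the loss quintile went from -1.418 to -1.275 at 10 h to -0.68 and -0.66. Between 24 h and 0 h, 8237 genes differed (64.7%), 2832 of them higher (22.3%) and 5405 lower (42.5%). This split depended on the scaling, with 1226 higher and 9533 lower by total counts alone and 3791 higher and 3494 lower by DESeq2's Wald test. The 24 h against 0 h values share libraries with the other comparisons and are set beside them only as levels.

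Short-lived regulators were among the genes that returned. Of 17 immediate early and labile regulators that passed the filter (41 in the list), 17 had fallen from 0 to 6 h, by a median of 2.36 on the log2 scale. Of these, 11 (64.7%) rose late (median 0.58), near the 64.9% of all genes that fell early. IER5, an immediate early gene, went from 19.1–25.6 CPM at 10 h to 49.3 and 58.8 CPM at 24 h (late change 1.26, SE 0.14, adjusted p = 3.17e-08). MCL1, a BCL2-family survival factor, went from 80.4–102 CPM to 195 and 203 CPM. BTG2, an antiproliferative gene, and NFKBIA, the NF-κB inhibitor IκBα, rose by 1.14 and 0.97. In each of these 4 genes the 24 h libraries lay above all 10 h libraries. The AP-1 gene JUN and the phosphatase gene DUSP1 did not pass, JUN at 0.22 (adjusted p = 0.16) and DUSP1 at 0.48 (adjusted p = 0.0584), and JUN was at 112 and 119 CPM against 86.8–124 CPM at 10 h. The BMP and Notch targets of the ID, HES and SMAD list gave 8 rises (66.7%) and 1 fall among 12, also near that share, after 10 had fallen early. ID2 and HEY1 rose by 1.25 and 1.20, whereas HES6 fell by 0.94 and SMAD7 (0.24, adjusted p = 0.304) did not pass.

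The plot of list medians over the chase shows when the return began. Immediate early genes were lowest at 4 to 6 h, at -1.88 to -2.29 relative to 0 h over the 8 libraries on the log2(CPM + 1) scale, were at -1.02 to -1.30 by 10 h and at -0.57 (shControl) and -0.42 (shZNF598) at 24 h. The median of histone mRNAs was lowest at 10 h, at -1.95 to -2.53, and stood at -0.52 and -0.75 at 24 h. That of G2/M genes lay between -0.19 and 0.19 up to 6 h, at -0.76 to -0.91 at 10 h and at -0.17 and -0.18 at 24 h. The lists therefore reached their lowest level at different times, while at 24 h each lay between its lowest level and that of 0 h.

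**Figure D2:**
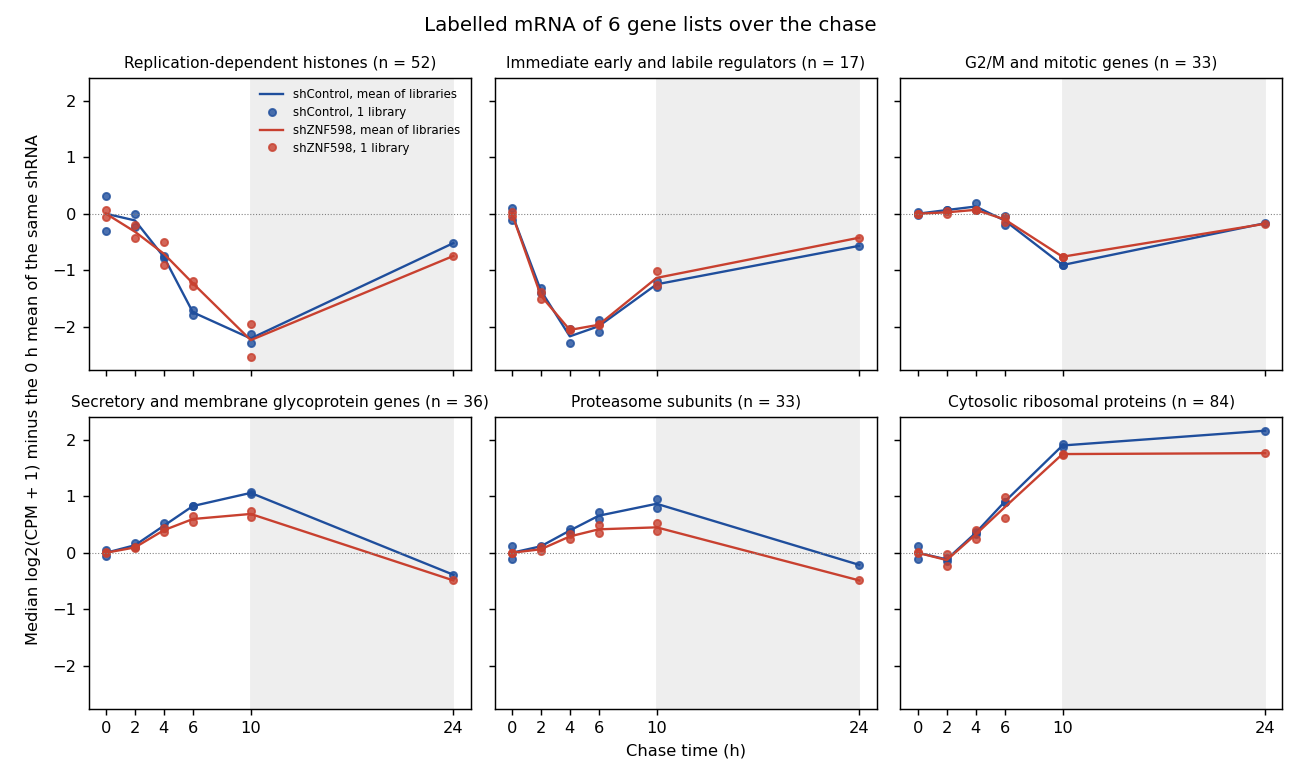
Median over the genes of 6 lists of log2(CPM + 1) minus the 0 h mean of the same shRNA, by chase time in hours, with a point per library, lines through the means and the interval from 10 to 24 h shaded. Histone, immediate early and G2/M genes are higher at 24 h than at 10 h in both shRNAs, and secretory and proteasome genes are lower.

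Many regulators of transcription and of ubiquitin transfer also fell early and rose late, as did 64.9% of all genes that fell early. The ZNF (56.7%), RNF and TRIM (61.7%) and HOX lists (55.6%) were not above that share. The ZBTB list (77.4%) and the CLK and DYRK kinase list (80.0%, of only 10 genes) were above it. These list shares are of all members tested, not only of those that fell early. Of 31 ZBTB transcription factor genes, 24 rose (median 0.70), and 30 had fallen early. ZBTB11 went from 30.7–36.1 CPM at 10 h to 94.8 and 91.1 CPM at 24 h (late change 1.45, SE 0.12, adjusted p = 2.04e-10). Of 312 ZNF genes, most of which encode C2H2 zinc finger proteins, 177 rose and 12 fell (median 0.51), after 285 had fallen early. Without the shZNF598 24 h library, 8 ZNF genes passed as lower, against 13 with it, both without the condition on each shRNA. The largest rises were in ZNF692, ZNF830, ZNF627 and ZNF202, from 1.40 to 1.48 on the log2 scale, and the largest falls in ZNF326, ZNF185, ZNF219 and ZNF664, from -1.51 to -1.03. The median of the ZNF genes was 0.54 in shControl and 0.46 in shZNF598. RNF and TRIM ubiquitin ligase genes gave 58 rises and 10 falls among 94 (median 0.56), led by RNF113A, TRIM9, RNF220 and TRIM27. DESeq2's Wald test called 45 of them higher, without the condition on each shRNA. HOX genes gave 10 rises among 18, with HOXC9 at 1.46, and the CLK and DYRK kinase list 8 rises among 10, with CLK1 at 0.97. With DESeq2's Wald test, 9 HOX genes and 5 CLK and DYRK kinase genes were called higher, without the condition on each shRNA.

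Mitotic genes rose late although they had not fallen early as a group. Of 33 G2/M genes, 24 rose and 2 fell (median 0.71), after 14 had fallen and 13 had risen early (median early change -0.13). The share that rose was 72.7%, beside 37.6% of all genes. Without the condition on each shRNA, DESeq2's Wald test called 20 higher and edgeR 25. CCNB1, the mitotic cyclin B1 (chromosome 5, 69167150 to 69178245, plus strand), was at 89.2 and 95.95 CPM in the shControl and 101 and 110 CPM in the shZNF598 libraries of 10 h, and 312 and 266 CPM at 24 h. Both 24 h libraries were above every 10 h library, and the late change was 1.55 (SE 0.12, adjusted p = 4.47e-11). AURKA, the kinase of spindle poles, went from 30.4–36.96 CPM to 99.1 and 92.5 CPM, KIF23, a kinesin of the midzone, from 26.1–33.3 CPM to 65.8 and 75.1 CPM, and CDK1, the partner of cyclin B1, from 34.2–41.1 CPM to 92.8 and 80.9 CPM. PTTG1 (securin) and BIRC5 (survivin) fell by 1.16 and 0.75, and BUB1 (0.21, adjusted p = 0.143) did not pass. G1/S and replication genes gave 15 rises and 7 falls among 34 (44.1% and 20.6%, median 0.25), beside 37.6% and 29.9% of all genes. The falls were 4 without shControl 10 h replicate 2 or without the shControl 24 h library, and the median was 0.15 without the shZNF598 24 h library. GINS3, a subunit of the replicative helicase, rose by 1.56, the flap endonuclease gene FEN1 by 1.14, CDC6 by 1.01 and cyclin E1 (CCNE1) by 0.89, whereas the nucleotide synthesis genes TK1, RRM1 and TYMS fell by 0.83, 0.67 and 0.64.

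Cholesterol synthesis and uptake genes gave 15 rises and 9 falls among 29 (51.7% and 31.0%, median 0.45), beside 37.6% and 29.9% of all genes. The median was 0.28 in shControl and 0.51 in shZNF598, and without the shZNF598 24 h library 11 genes were called higher and the median was 0.28. The rises included INSIG1, which holds the sterol sensor in the endoplasmic reticulum (1.52), and the synthesis genes MSMO1 (1.40) and HMGCS1 (1.29). TM7SF2, ACAT2, EBP and the transcription factor gene SREBF2 fell by 1.61, 1.01, 0.85 and 0.82.

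The stress response lists held both rises and falls, and the shares of the integrated stress response (42.9% higher, 28.6% lower) and heat shock lists (34.8% each) were near the background of all genes. Of 25 unfolded protein response genes, 7 rose and 11 fell. The share of this list that rose was below the 37.6% of all genes, and the share that fell was above their 29.9%. The transcription factor gene XBP1 went from 24.2–29.8 CPM at 10 h to 76.8 and 73.03 CPM at 24 h (late change 1.53, SE 0.13, adjusted p = 1.96e-10), and HERPUD1, the kinase gene EIF2AK3 (PERK) and HSPA5 (BiP) rose by 1.27, 1.06 and 0.93. The lectin chaperone genes CANX and CALR, the ER chaperone gene HSP90B1 and the disulfide isomerase gene PDIA3 fell by 1.94, 1.68, 1.94 and 1.61. In the integrated stress response list (12 rises and 8 falls among 28), STC2, DDIT4, TRIB3 and ATF4 rose by 1.54, 1.49, 1.19 and 1.10, whereas the serine and asparagine synthesis genes SHMT2, PHGDH and ASNS fell by 1.49, 1.43 and 1.41. Heat shock genes gave 8 rises and 8 falls among 23. The co-chaperone gene DNAJB1 rose by 1.44 and the transcription factor gene HSF2 by 1.22, and the abundant chaperone genes HSP90AA1, HSPE1 and HSPD1 fell by 2.18, 2.19 and 1.55. The near-identical copies HSPA1A and HSPA1B, whose levels are uncertain because only reads that tell them apart were kept, rose, HSPA1A by 0.58 and HSPA1B by 0.55. Without the shZNF598 24 h library, 5 heat shock genes rose in place of 8.

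Genes of the secretory pathway had the lowest median late change of the lists. The share that fell was 72.2%, beside 29.9% of all genes and 60.8% of those that rose early. Of 36 genes for the translocon, signal peptidase, oligosaccharyltransferase and membrane glycoproteins, 26 fell and 4 rose (median -1.20), and SDC1, SSR4 and SRPRA were among the rises. MAGT1, a subunit of the oligosaccharyltransferase (chromosome X, 77826364 to 77895593, minus strand), was at 821 and 926 CPM in the shControl and 749 and 624 CPM in the shZNF598 libraries of 10 h, and 125 and 94.7 CPM at 24 h. Every 24 h value was below every 10 h value, and the late change was -2.83 (SE 0.14, adjusted p = 5.33e-14). TRAM1, which assists translocation, went from 295–357 CPM to 48.1 and 42.1 CPM, the tetraspanin gene CD9 from 108–117 CPM to 19.4 and 18.4 CPM, and SPCS1, a signal peptidase subunit, from 122–146 CPM to 25.9 and 25.3 CPM. The median of the list was 0.63 to 1.07 above 0 h at 10 h on the log2(CPM + 1) scale, and at -0.39 (shControl) and -0.49 (shZNF598) at 24 h. SEC61A1, the pore of the translocon, was at 163 and 172 CPM against 142–179 CPM and did not pass.

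Lysosome, proteasome, polyamine and glycolysis genes fell as well, in 65.8%, 72.7%, 58.3% and 73.7% of the genes tested. Of all genes 29.9% fell, and of all genes that rose early 60.8% fell. Of 38 lysosome and autophagy genes, 25 fell and 5 rose (median -0.87), with the proton pump gene ATP6AP2 from 343–441 CPM to 125 and 86.97 CPM. Without the shControl 24 h library 3 of this list were called higher. The rises were led by UVRAG (1.29) and the autophagy receptor gene SQSTM1 (0.66). Of 33 proteasome genes, 24 fell and 2 rose (median -0.93), and the 2 that rose, PSMC6 and PSMD11, did not pass when either of the 24 h libraries was left out. The core particle gene PSMA5 went from 139–224 CPM to 36.7 and 40.7 CPM (late change -2.20, SE 0.16, adjusted p = 1.02e-11). Polyamine genes gave 7 falls and 1 rise among 12, with the acetyltransferase gene SAT1 down by 1.82 and the decarboxylase gene AMD1 up by 0.92. Of 19 glycolysis genes, 14 fell, among them ALDOC (-1.79), PKM (-1.57), LDHA (-1.49) and ALDOA (-1.15), and 3 rose, PFKP, HK2 and the glucose transporter gene SLC2A1.

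The largest falls of all were in single genes of varied function. DYNLT3, a dynein light chain gene (chromosome X, 37838836 to 37847571, minus strand), was at 64.9 and 76.6 CPM in the shControl and 62.1 and 56.1 CPM in the shZNF598 libraries of 10 h, and 4.28 and 6.15 CPM at 24 h. The values at 24 h rested on 21 and 60 counts, and the late change was -3.55 (SE 0.20, adjusted p = 1.28e-13). PRDX3, the mitochondrial peroxiredoxin gene (chromosome 10, 119167720 to 119178812, minus strand), went from 748–1050 CPM at 10 h to 104 and 79.8 CPM at 24 h, a fall of 3.28 on the log2 scale (SE 0.14, adjusted p = 3.59e-15). TSPAN13, TAF9B, CRYZ, NXT2, TXNDC12, GNG10 and TMEM38B changed by -3.26 to -2.99 on the log2 scale, and DNAJC25-GNG10, a readthrough gene that overlaps GNG10, by -3.11. OSTN and MXRA8 fell by 3.34 and 3.23 on only 4 counts each in the shControl 24 h library. FKBPL, an FK506-binding-like protein gene, was among the 12 largest rises of protein-coding genes and went from 2.498–3.68 CPM to 12.2 and 11.2 CPM.

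**Figure D3:**
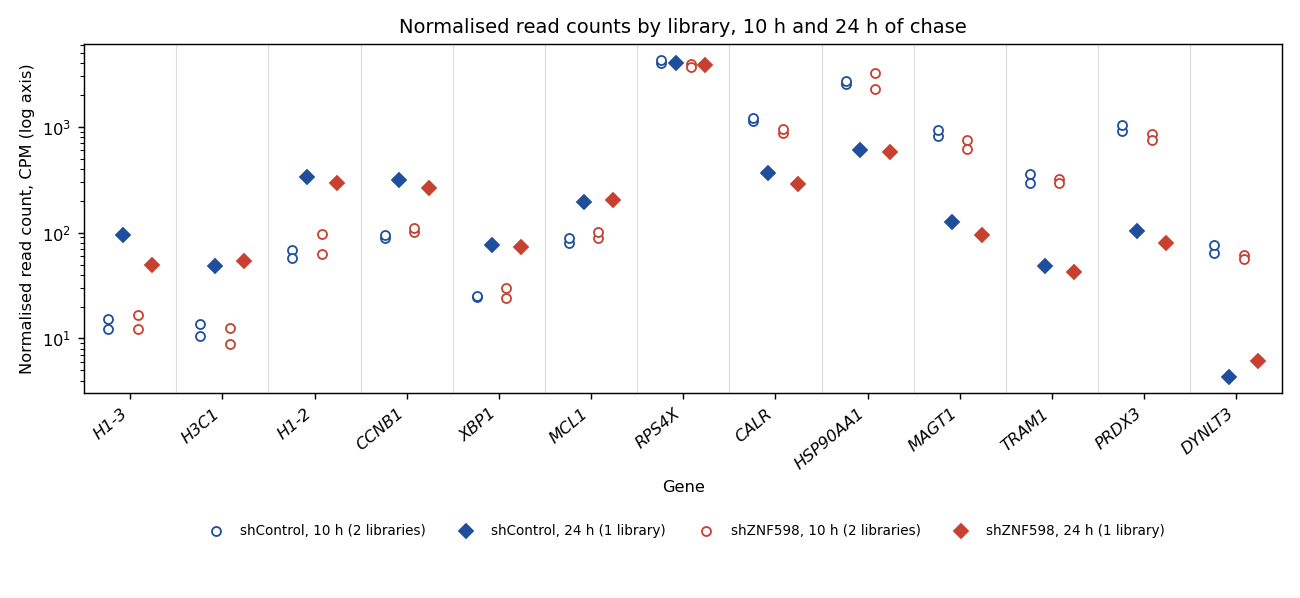
Normalised read counts (CPM, log axis) of 13 genes in each library, with open circles for the 2 libraries of 10 h and filled diamonds for the library of 24 h of each shRNA. From H1-3 to MCL1 both diamonds lie above all circles of the gene, RPS4X is level, and from CALR to DYNLT3 both lie below.

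Ribosomal protein genes as a list stayed near their level of 10 h. Of 84 genes, 79 had risen from 0 to 6 h relative to the bulk, and between 10 and 24 h 33 rose and 18 fell (median 0.14, near that of all genes). These were 39.3% and 21.4% of the list, beside 37.6% and 29.9% of all genes. At 24 h the list stood 1.97 above 0 h on the log2 scale. RPS4X was at 3998 and 4301 CPM in the shControl and 3916 and 3712 CPM in the shZNF598 libraries of 10 h, and 4009 and 3809 CPM at 24 h. EEF1A1, the elongation factor gene, was at 14400–17100 CPM and then 18280 and 16610 CPM, and neither passed the test (adjusted p = 0.83 and 0.134). RPL39, RPL39L, RPL31 and RPS21 rose by 0.89 to 1.24, whereas RPS27L, RPL26L1, RPL17 and RPL5 fell by 1.06 to 1.78. Without the shControl 24 h library, 21 ribosomal protein genes passed as higher, against 36 with it, both counted without the condition on each shRNA.

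Most respiratory chain genes fell. Of 79 nuclear-encoded subunit genes, 53 fell and 10 rose (median -0.58), after 74 had risen early. The share that fell was 67.1%, beside 60.8% of all genes that rose early. NDUFC2 went from 228–246 CPM to 30.8 and 32.4 CPM (late change -2.88, SE 0.14, adjusted p = 5.33e-14), and NDUFB5, NDUFA5 and NDUFA9, also of complex I, fell by 1.76 to 2.11. COX7A2, UQCRQ, NDUFA1 and COX6C rose by 0.78 to 1.06, and 15 rather than 10 genes were called higher without the shZNF598 24 h library. The mRNAs encoded by mitochondrial DNA were not analysed here. Mitochondrial ribosomal protein genes had 28 rises and 18 falls among 78 (35.9% and 23.1%, median 0.09), near the 37.6% and 29.9% of all genes.

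Few genes that were lost early went on falling. Among genes with an early fall of at least 1 on the log2 scale, the largest further falls were in SPTSSA, a subunit of serine palmitoyltransferase (-1.44, adjusted p = 0.00113), RTL8A (-0.74), the snoRNP gene GAR1 (-0.70), ENSG00000268573 (-0.67), the ubiquitin ligase gene RCHY1 (-0.61) and KRBA2 (-0.59). SPTSSA was at 2.81–3.48 CPM at 10 h and 1.43 and 1.02 CPM at 24 h, and stood at -3.80 relative to 0 h. Its 24 h values rested on 7 and 10 counts. The early falls of these genes were from -1.16 to -1.07.

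Features of the annotated transcripts were set beside these classes as a description. Genes that fell early and rose late had a median 3′ UTR of 1898 nt, against 884.5 nt for those that rose early and fell late and 1533 nt for all protein-coding genes with a 3′ UTR. The nonamer TTATTTATT of AU-rich elements, searched on the sense strand, was found in the 3′ UTR of 11.4%, 6.82% and 10.1% of these genes in turn. It was also found in 13.8% of the genes that fell early and were not called late and in 14.4% of those that fell in both intervals, whose median 3′ UTRs were 2120 and 1475 nt, so that its share did not follow the 3′ UTR length throughout. By quintile of transcript length, the median late change went from -0.32 for the shortest to 0.33 for the longest transcripts, and by quintile of U content from -0.07 for the poorest to 0.32 in the middle and 0.10 for the richest. Histone genes, which are short and poor in U, went against both orders. These are descriptions across genes, which are not independent replicates.

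**Figure D4:**
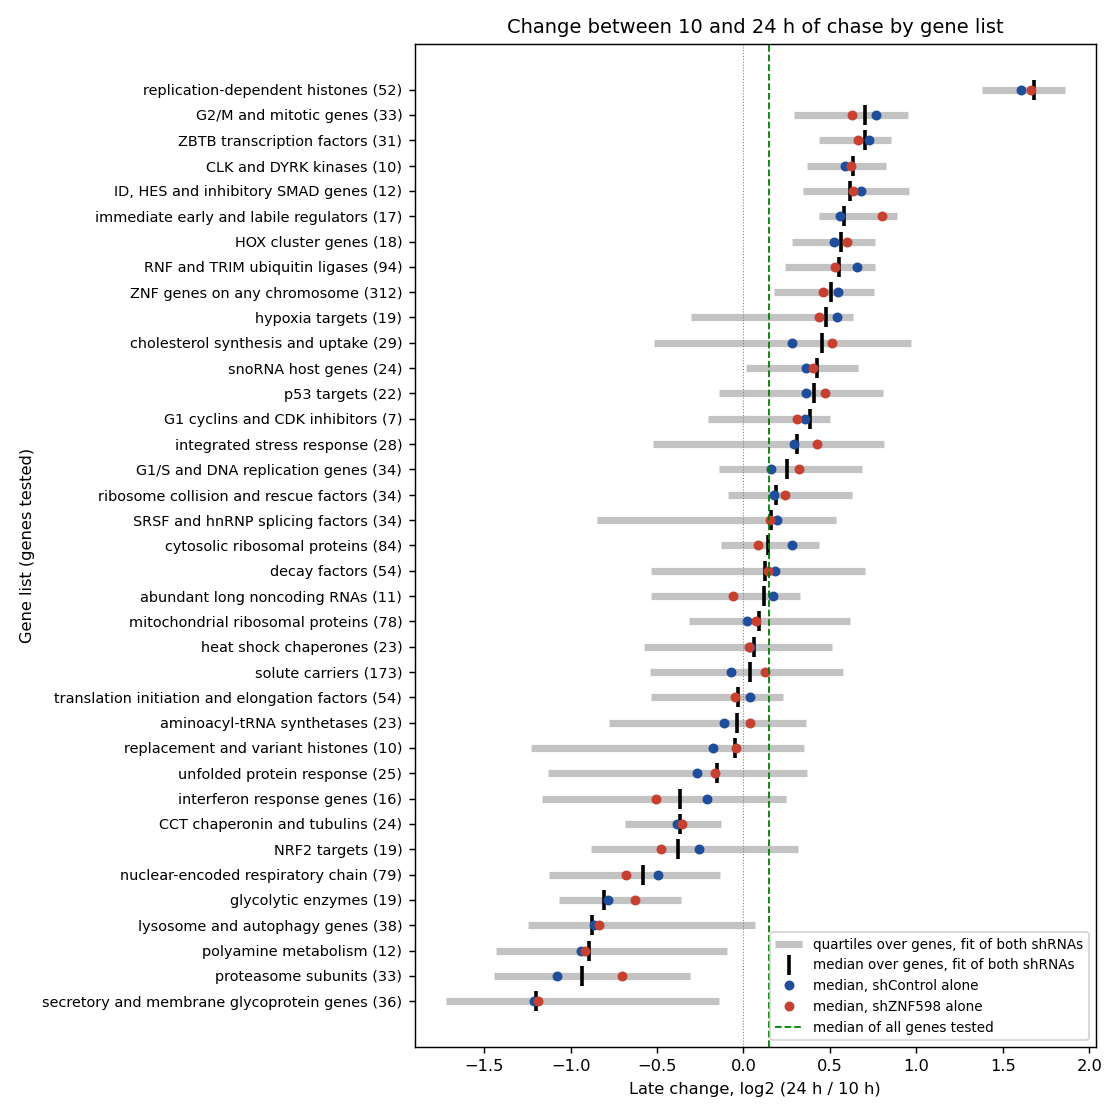
Late change (log2 of 24 h over 10 h) for each gene list with at least 7 genes tested, with the quartiles over genes as grey bars, the median as a black tick, the medians of each shRNA alone as points and the median of all genes as a dashed line. Histones lie highest (median 1.68) and secretory and membrane glycoprotein genes lowest (-1.20), and the points of the 2 shRNAs lie on the same side of the dashed line in both.

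Few genes passed the test of an shRNA difference in the late change. In the test of the difference, with 1 library of 24 h per shRNA and the spread taken from the 10 groups of 2, 28 of 12725 genes passed (0.22%), 12 with a higher and 16 with a lower change in shZNF598, and 1360 had an unadjusted p below 0.05. DESeq2's Wald test called 74. The edgeR test was also run on simulated data with a dispersion of 0.02 for every gene. Of genes whose change differed by 1 on the log2 scale, 13% were recovered, against 99% of those differing by 2. Differences near 1 would thus mostly be missed at that dispersion. RPN1, a subunit of the oligosaccharyltransferase (chromosome 3, 128619969 to 128650818, minus strand), was at 1361 and 1510 CPM in the shControl and 110 and 112 CPM in the shZNF598 libraries of 10 h, and 291 and 91.8 CPM at 24 h. It fell in shControl, while in shZNF598 it was already low at 10 h and, at 205 and 208 CPM, at 0 h against 413 and 504 CPM in shControl (difference 2.03, SE 0.19, adjusted p = 3.52e-06). AK3, the mitochondrial adenylate kinase gene, had the same form, at 40.5 and 55.8 CPM in the shControl and 5.62 and 4.66 CPM in the shZNF598 libraries of 10 h, and 12.8 and 5.63 CPM at 24 h (difference 2.02, adjusted p = 0.0255). MCOLN1, a lysosomal cation channel gene, was at 133, 110, 111 and 76 counts at 10 h, 1 count at 24 h in shControl and 35 in shZNF598, so that its difference rests on a single count. The other genes named were copies of other genes, whose levels are uncertain because they rest on the reads that match 1 locus alone. The processed pseudogenes RPL36AP26, RPS11P5, RPS18P12 and RPS3AP51 and the 7SL copy RN7SL674P were higher in the shControl than in the shZNF598 library of 24 h, RN7SL674P at 953 against 165 CPM after 43.6–49.3 CPM at 10 h. RPL7AP53 and RPL7AP73, at 4.49 and 4.69 CPM in the shControl library of 24 h, were lower there than in that of shZNF598, where both were at 19.2 CPM. Among the rises of non-coding genes called in both shRNAs, RN7SL674P (3.24), the 7SK copy RN7SKP291 (2.93) and RPL36AP26 (2.65) were the largest, and each was larger in shControl. 

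**Figure D5:**
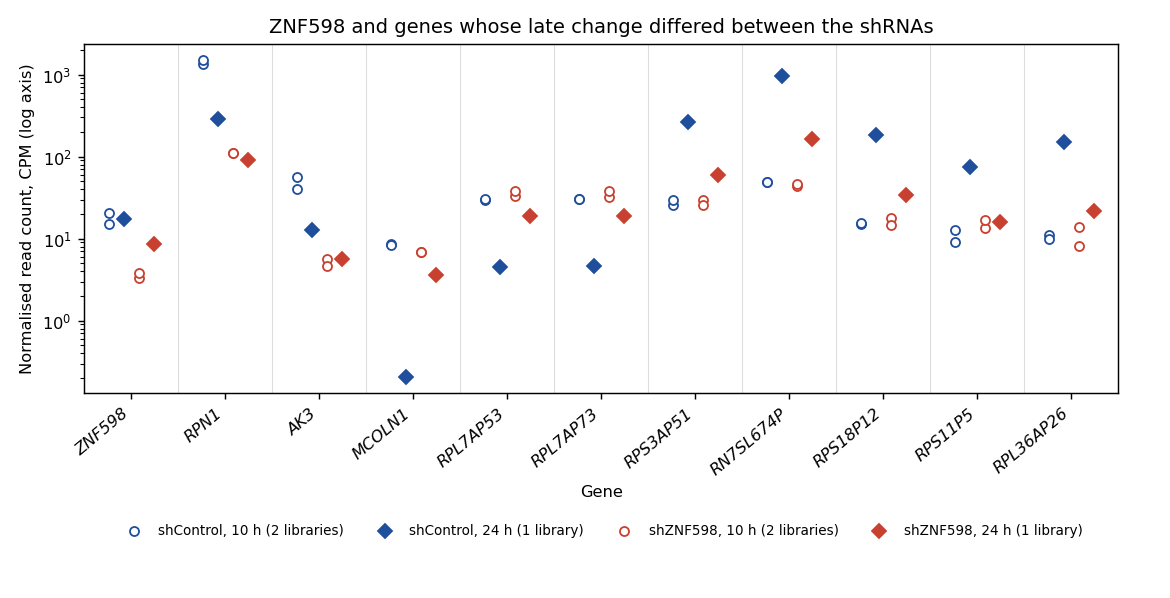
Normalised read counts (CPM, log axis) of ZNF598 and of 10 genes whose late change differed between the shRNAs, with open circles for the 2 libraries of 10 h and filled diamonds for the library of 24 h of each shRNA. RPN1 and AK3 are lower at 24 h than at 10 h in shControl and low at both times in shZNF598, and the copies from RPS3AP51 to RPL36AP26 are highest in the shControl library of 24 h.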

How the data were processed

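BrU-labelled RNA was measured in 22 libraries of chases of 0 to 24 h. Per the authors, adapters were trimmed with fastp, reads of non-coding RNA removed, and the rest aligned to hg38 with STAR 2.7.0a, keeping unique hits with at most 1 mismatch. The deposited values are raw read counts per transcript by featureCounts with GENCODE release 32. The strand setting of the counting is not given in the sources used here, so antisense and overlapping genes may share reads. Spike-in counts were not used.

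From these counts, 1 transcript per gene was kept, that with the highest mean count over the libraries of 0 to 10 h, named by GENCODE. Identifiers matched a name in 98.4% of cases, and the unmatched 2.22% of counts were left out of totals and tests. Of 61156 genes, 12725 were tested, those whose CPM averaged 5 or more across the 20 libraries of 0 to 10 h. The 6 libraries compared held 6608953 to 22337237 counts over the 61156 genes, before the CPM filter, fewest at 24 h. TMM factors were computed over all 22 libraries. The late change was fitted on the 6 libraries with shRNA as covariate, by edgeR's quasi-likelihood test (edgeR 4.0.16, limma 3.58.1, R 4.3.3) with Benjamini-Hochberg adjustment over all genes and a threshold of 0.05. With 3 residual degrees of freedom the spread was moderated by a prior of 23.2. A gene rose or fell in both shRNAs when it passed and each 24 h library lay beyond both 10 h libraries of its shRNA. The early change (6 h against 0 h, 8 libraries), 24 h against 0 h (6 libraries) and the shRNA difference (group means over 22 libraries) used the same test. On simulated data for the late change, 98% of genes changed by 1 and 12% of those changed by 0.5 on the log2 scale were recovered, with 8 false among 118 calls. The simulation changed 100 genes by each amount among 12725 and gave every gene a dispersion of 0.02. In the data 68.6% of genes were called, so these figures cannot stand for the error of those calls.

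Genes were named by a rule: the 12 protein-coding and 3 other genes with the largest late change per direction, up to 4 called members per direction and 2 abundant uncalled members per list, 6 early-lost genes per direction, 5 genes per direction for the shRNA difference, and ZNF598. CENPA, H2AX, H2AZ1, H3-3A, H2AC25 and HSPA1B were named after their values were seen. Some genes that the rule names are not reported here. Members and lists were chosen with earlier results of these data known. Alternatives were another scaling, filter, transcript choice, naming or set of libraries, DESeq2 1.42.0, a replicate block and leaving out each library. Same-numbered replicates did not deviate together at every time (r from -0.24 at 10 h to 0.343 at 4 h), so no pairing was used.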

Additional observations from a re-analysis of the deposited data

Results flagged for a closer look

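The late change of 28 genes differed between the shRNAs (28.0 of 12725, edgeR quasi-likelihood test of the difference with Benjamini-Hochberg adjustment). The differences of the genes named, given as shZNF598 minus shControl on the log2 scale, were 4.4 for MCOLN1, 2.03 for RPN1, 2.02 for AK3, 1.87 for RPL7AP53 and 1.83 for RPL7AP73. They were -2.82 for RPL36AP26, -2.7 for RPS11P5, -2.53 for RPS18P12, -2.4 for RN7SL674P and -2.15 for RPS3AP51. The value of MCOLN1 rests on 1 count in the shControl library of 24 h. All genes named but MCOLN1, RPN1 and AK3 are processed pseudogenes or a 7SL copy, and the shControl library of 24 h was the shallower of the pair, at 6608953 counts against 13197461 over 1 transcript per gene. The part of depth and of sequence likeness in these values was not tested.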

How the results depend on the processing

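The late change, 24 h against 10 h, gave between 7731 and 9925 called genes under the alternatives, against 8731 (4873 higher and 3858 lower, but 3636 and 4156 with DESeq2), and 7358 to 8561 when each library was left out. The count in both shRNAs was not run with the transcript chosen over the 6 libraries, and under other filters and names it covers only the 12725 genes. The median of all genes was 0.0288 with DESeq2's Wald test and -0.064 with no filter in place of 0.148, and list medians near 0 (heat shock, solute carriers, translation factors, synthetases, mitochondrial ribosomal proteins, long non-coding RNAs, metallothioneins and variant histones) changed sign under some settings. A replicate block gave 7731 late calls, 10484 early calls, 7532 for 24 h against 0 h and 34 for the shRNA difference, and with the shZNF598 numbers of 10 h crossed 8034 late calls. Without pseudogenes and misc_RNA genes 7732 were called. With total counts alone, 2971 genes were higher early, and 1226 were higher and 9533 lower at 24 h against 0 h. DESeq2 gave 3494 lower at 24 h against 0 h.

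The shRNA difference depended most on the setting. It counted 91 genes (39 higher, 52 lower) from the 6 libraries alone, 74 (32 and 42) with DESeq2, 51 (33 lower) with a filter of 1 CPM and 148 (56 and 92) with no filter, against 28. Leaving out single libraries gave 16 to 29, with 4 to 11 higher. The causes were not tested.

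Of 3849 alternative values of the genes named, 92 no longer passed, 9 newly passed and 12 changed sign. PSMD11, PSMC6, SRPRA, THAP9-AS1, MIR17HG and ZNF598 lost the call most often. SEC61A1 was at -0.05141 with DESeq2, -0.0124 with no filter, -0.00545 with TMM over 6 libraries and -0.002267 with DESeq2 size factors. RPS4X was at 0.001237 with the filter over 6 libraries, 0.0462 with total counts and 0.02074 with the crossed block. Leaving out each library in turn gave -0.08596 to 0.2072 for SEC61A1, -0.04958 to 0.0007176 for RPS4X, -1.904 to 0.118 for AK3 (highest without shControl at 24 h), -0.03178 to 1.275 for ZNF598 and -0.04258 to 0.9068 for DUSP1 (both lowest without shZNF598 at 24 h). The spread of the late change came from the 10 h pairs and from the difference between the shRNAs, so an shRNA effect enters it. With 1 library of 24 h per shRNA, the spread at 24 h rests on the assumption that it equals that of 10 h.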

Other observations

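Further gene lists held both rises and falls in the late change, 24 h against 10 h, beside 37.6% of all genes rising and 29.9% falling in both shRNAs and a median of 0.15 on the log2 scale. All calls here are from edgeR's quasi-likelihood test. Hypoxia targets gave 11 rises and 5 falls among 19 (median 0.47), with DDIT4 and HILPDA up by 1.49 and 1.18 and the mitophagy receptor gene BNIP3L and the collagen lysyl hydroxylase gene PLOD2 down by 2.69 and 1.79. Targets of p53 gave 11 rises and 5 falls among 22 (median 0.41), with BTG2, XPC, SESN1 and CDKN1A (p21) up by 0.99 to 1.14 and CCNG1, RRM2B and TP53I3 down by 0.99 to 1.23. Without the shZNF598 24 h library 7 p53 targets were called higher. Of 19 NRF2 targets 11 fell and 5 rose (median -0.38), with the sulfiredoxin gene SRXN1 up by 1.57 and ME1, PRDX1 and NQO1 down by 1.07 to 1.66. Interferon response genes gave 9 falls and 4 rises among 16 (median -0.36). The membrane proteins IFITM1 and IFITM3 and the class I subunit B2M fell by 2.36, 1.84 and 1.17, and IFIT1 and TRIM25 rose by 0.83 and 0.79, though 1 gene of this list was called higher without the shControl 24 h library, and the median was -0.21 without that of shZNF598.

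Splicing factors of the SRSF and hnRNP families gave 13 rises and 12 falls among 34 (median 0.16). SRSF5, SRSF8, HNRNPDL and SRSF6 rose by 1.05 to 1.40, whereas HNRNPC went from 3368–4472 CPM at 10 h to 830 and 683 CPM at 24 h and HNRNPH1, HNRNPM and SRSF9 fell by 1.28 to 1.57. Decay factors gave 23 rises and 16 falls among 54 (median 0.12). SMG8 and UPF2 of nonsense-mediated decay rose by 1.26 and 1.02, and LSM3, LSM5 and LSM4 of the LSM ring and HBS1L, a ribosome rescue factor gene, fell by 1.48 to 1.81. Of 34 ribosome collision and rescue genes, which include the pathway of ZNF598, 13 rose and 5 fell (median 0.19), with ANKZF1, TRIP4 and RNF25 up by 0.94 to 0.96 and RACK1, the ribosomal scaffold gene, down by 0.62.

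Hosts of small nucleolar RNAs gave 13 rises and 4 falls among 24 (median 0.43), with SNHG12, SNHG15, GAS5 and SNHG16 up by 1.02 to 1.10. Without the shControl 24 h library 2 of this list were called lower. Among 11 abundant long non-coding RNAs, the nuclear MALAT1 and NEAT1 fell by 1.69 and 1.46, NORAD and TUG1 by 0.67 and 0.40, and TERC, MIR17HG and THAP9-AS1 passed as higher. The higher calls of this list were 1 to 2 when any library was left out, 1 with DESeq2 and 1 with TMM over the 6 libraries. The CCT chaperonin and tubulin list gave 13 falls and 3 rises among 24, with CCT8 and CCT7 down by 1.74 and 1.70. Its falls were 9 with a replicate block and 16 with DESeq2's Wald test, both without the condition on each shRNA. Translation factors gave 19 falls and 13 rises among 54, and aminoacyl-tRNA synthetases 9 falls and 7 rises among 23. G1 cyclins and CDK inhibitors gave 2 falls (1 with a replicate block) and 3 rises among 7. Solute carriers gave 53 falls and 50 rises among 173. Of the metallothionein list 2 genes passed the filter, and neither was called.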
